A study of Mus musculus with 7 samples.

Results

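Fcgrt and Pigr encode the receptors that carry antibodies across the colon epithelium, and both were measured in whole colon tumors of mice that had received a bone marrow (BM) graft. The members were these 2 genes, found by their Ensembl identifiers among the 43346 genes listed in the count table and present in all 7 tumors. The 15810 genes with enough counts to test included both. The study asked what a graft lacking 1 copy of Dnmt3a, a DNA methyltransferase gene often mutated in aging blood, does to the tumors that form in an otherwise normal colon. Tumors of the control group, Dnmt3a(+/+) BM, came from 3 animals and those of the Dnmt3a(+/-) BM group from 4. Donors of both groups carried Mx1-Cre, an interferon-inducible recombinase, and were given poly(I:C); donors of the Dnmt3a(+/-) group also carried 1 floxed Dnmt3a allele. Recipients of both groups were irradiated wild-type mice, given in the labels as C57BL6/J and 8 weeks old and in the study's methods as a congenic CD45.1 strain and younger, so the deletion was in the grafted blood cells and the epithelium, vessels and stroma kept both copies of the gene. All recipients then received 1 dose of azoxymethane (10 mg/kg), a colon carcinogen, and 3 cycles of 3% dextran sulfate sodium, which injures the colon lining. The animals belonged to 2 transplantation experiments: BMT18 supplied replicates 1 and 2 of each group, and BMT8 supplied control replicate 3 and Dnmt3a(+/-) replicates 3 and 4.

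The polymeric immunoglobulin receptor, the product of Pigr, binds IgA and IgM that contain the J chain on the basal side of an epithelial cell, crosses the cell in vesicles and is cut at the luminal side, where its outer part stays on the antibody as secretory component. The neonatal Fc receptor pairs the heavy chain encoded by Fcgrt with beta-2-microglobulin (B2m), binds IgG and albumin in acidified endosomes and returns them to a cell surface. In rodents it takes up milk IgG in the suckling gut, and in adults it is also found in endothelium and macrophages, so a signal for Fcgrt in a whole tumor need not be epithelial. The comparison genes were therefore B2m, the partner of the Fcgrt product; Jchain, which marks the antibodies that Pigr carries and the cells that secrete them; and Epcam, an adhesion molecule of the epithelium.

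Fcgrt (ENSMUSG00000003420) lay on the minus strand of chr7:45092990-45103851 in GRCm38, with 2102 bases of exon in the GENCODE M21 annotation. An antisense gene, Gm45669, overlapped it and shared 0 exon bases with it. Pigr (ENSMUSG00000026417) lay on the plus strand of chr1:130826684-130852249 with 4025 bases of exon, and no annotated gene overlapped it. Its nearest neighbours, 11944 and 13420 bases away, were Fcamr and Fcmr, 2 further genes for receptors of IgM. The upstream stretches are shown because the 2 genes were both lower in the same tumors and because factors known to act on them were also measured. Each runs 5′ to 3′ on its gene's strand and ends 50 bases before the RefSeq start site (GRCm38.p6), at chr7:45103873-45104072 for Fcgrt and chr1:130826434-130826633 for Pigr. Capitals mark the matches to 6 short motifs, searched on both strands of the 250 bases before and 50 bases after the start.

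Fcgrt: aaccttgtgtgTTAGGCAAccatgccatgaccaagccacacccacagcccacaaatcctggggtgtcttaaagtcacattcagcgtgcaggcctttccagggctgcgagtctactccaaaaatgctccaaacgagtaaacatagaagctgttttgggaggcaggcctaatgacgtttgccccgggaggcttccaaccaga

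Pigr: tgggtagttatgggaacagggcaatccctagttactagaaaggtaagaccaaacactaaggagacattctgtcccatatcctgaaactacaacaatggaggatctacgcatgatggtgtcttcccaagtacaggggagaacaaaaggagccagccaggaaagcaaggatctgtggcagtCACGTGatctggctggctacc

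The capitals in Fcgrt are a match to TTGCNNAA, read on the opposite strand, the element of C/EBP factors, which 10.8% of 32851 promoter windows of the same length held. The capitals in Pigr are CACGTG, the E-box bound by Usf1 and Usf2, starting 71 bases before the start site, which 7.15% of the windows held. The Pigr window also held, past the start site and not printed, 1 match to the core AANNGAAA of interferon regulatory factors, present in 23.9% of windows, and 1 match to the STAT element TTCNNNGAA, present in 8.30%. Neither window matched the GC box GGGCGG of Sp1 (35.7% of windows) or the Hnf1 half-site GTTAAT (7.10%). These are letter matches in a short window and were not measured as binding sites.

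The tumors were sequenced to between 38472738 and 64314999 assigned counts, and the counts of Fcgrt, from 1051 to 3868, carried a counting error of at most 3.08%. Epcam was between 1543 and 3239 CPM (counts scaled to a library of 1e6, with the library sizes adjusted by TMM, the trimmed mean of M values) in every tumor and 12 of the 13 fixed epithelial markers averaged over 100 CPM in both groups, Cdx2 being the exception, so epithelial RNA was abundant in all 7 tumors. Dnmt3a itself averaged 22.5 ± 2.06 CPM (SD, n = 3) in control and 30.3 ± 8.94 CPM (SD, n = 4) in Dnmt3a(+/-) BM tumors, and its log2 fold change of 0.43 (SE 0.24) missed the threshold (edgeR adjusted p = 0.542). Only the grafted cells carried the deletion, and host cells contribute Dnmt3a RNA to a whole tumor. The share of either source in this value was not tested. Replicate 2 of the Dnmt3a(+/-) BM group stood apart in several cell type lists, with the highest mean level of fibroblast, endothelial, macrophage and leukocyte markers of the 7 tumors, and list results are given with and without it.

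Both receptors were lower in tumors of Dnmt3a(+/-) BM mice. Fcgrt was chosen by this very difference, being among the genes that the study called, and Pigr was selected on the same contrast, so their differences are descriptions without a test. Across all 15810 genes tested, edgeR's quasi-likelihood test called 0 genes (0%) when both an adjusted p under 0.05 and a log2 fold change beyond 1 in size were required, while 922 genes (5.83%) were higher and 822 (5.20%) lower at an unadjusted p under 0.05. With the same requirements, 300 genes were called by DESeq2.

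Fcgrt stood at 60.8, 60.4 and 60.5 CPM in control replicates 1 to 3. In the Dnmt3a(+/-) BM tumors it stood at 26.2, 22.2, 35.8 and 31.2 CPM in replicates 1 to 4. The groups did not overlap, and the gap between them was wider than the range within either group. The means were 60.6 ± 0.213 CPM (SD, n = 3) and 28.9 ± 5.90 CPM (SD, n = 4), 2.10-fold lower with the Dnmt3a(+/-) graft, and the fitted log2 fold change was −1.07 (SE 0.18). The near identity of the 3 control values depended on the TMM scaling. Scaled by library size alone they were 56.2, 60.1 and 51.1 CPM against 26.4, 26.8, 39.4 and 30.0 CPM, still without overlap.

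Pigr stood at 2695, 3879 and 1722 CPM in control replicates 1 to 3. It stood at 1472, 1167, 1363 and 639 CPM in Dnmt3a(+/-) BM replicates 1 to 4. The groups did not overlap on this scale, but control replicate 3 exceeded Dnmt3a(+/-) replicate 1 by less than the SD of either group, and the order of those neighbours changed with the scaling. Scaled by library size alone, control replicate 3 was at 1455 CPM, under the 1480 and 1500 CPM of Dnmt3a(+/-) replicates 1 and 3. The means were 2765 ± 1080 CPM (SD, n = 3) and 1160 ± 370 CPM (SD, n = 4), 2.38-fold lower with the Dnmt3a(+/-) graft, with a fitted log2 fold change of −1.25 (SE 0.37). Of all genes tested, 6.32% were lower and 6.12% higher in every Dnmt3a(+/-) BM tumor than in any control on the TMM scale. Both members are in the first count, which choosing them on this contrast favored, and for Pigr this depended on the scaling.

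Fcgrt varied little for a gene of these libraries and Pigr more than most. The SD of log2 CPM within groups was 0.231 for Fcgrt, which only 22.4% of the tested genes undercut, and 0.563 for Pigr, which 66.2% undercut, beside a median of 0.393. Fold changes below that of Fcgrt were found for 360 of the tested genes (2.28%) and below that of Pigr for 211 (1.33%). These places are descriptions, because choosing both genes on this contrast favors a large fold change. For Fcgrt, a gene that the study called, the choice also favors a small spread within groups.

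**Figure D1:**
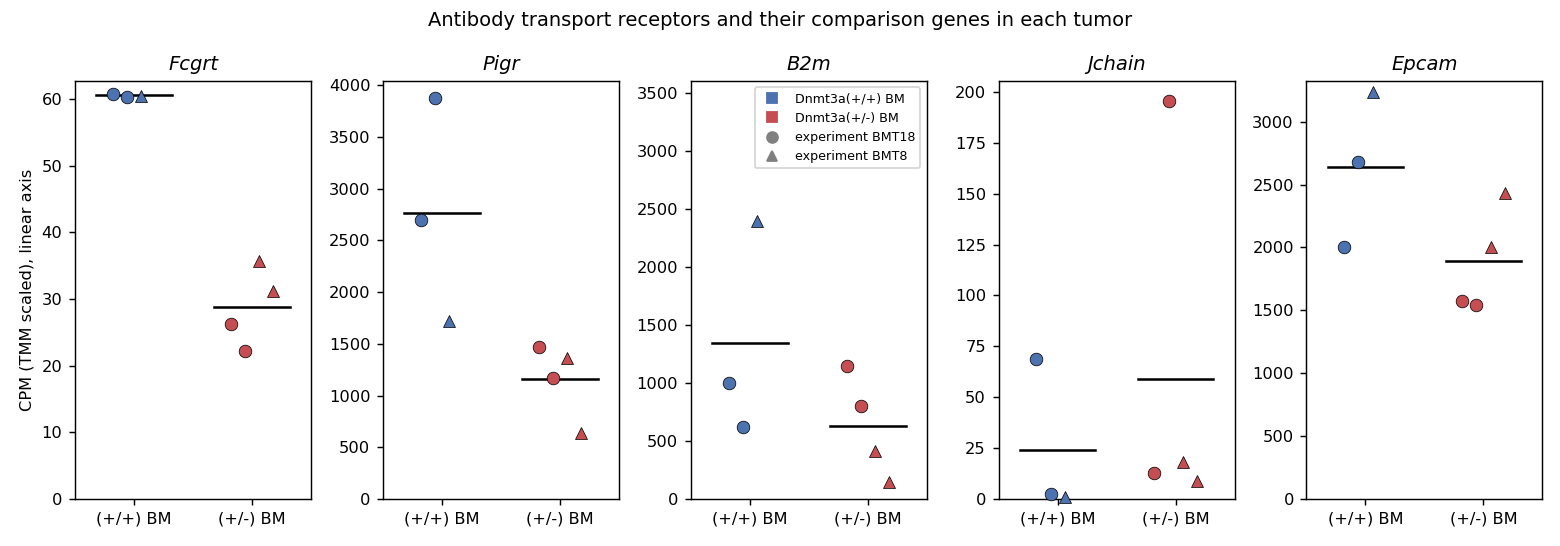
Level of each receptor and comparison gene in CPM (linear axes from 0) in each tumor, grouped by graft; circles are tumors of experiment BMT18, triangles those of BMT8, and horizontal bars are group means. Fcgrt separates the grafts, at 60.4 to 60.8 against 22.2 to 35.8 CPM, Pigr does so by a narrow margin, and B2m, Jchain and Epcam overlap.

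On a scale per transcript length, which allows genes to be compared with each other, Pigr was by far the more abundant receptor. In TPM, counts divided by exon length and scaled to the same total in every tumor, Pigr measured 1596, 2599 and 863 in control and 1011, 1017, 1000 and 360 in Dnmt3a(+/-) BM tumors. The Pigr groups overlapped on this scale, with control replicate 3 under Dnmt3a(+/-) replicates 1 to 3. Fcgrt measured 69.0, 77.5 and 58.0 in control and 34.5, 37.1, 50.3 and 33.6 in Dnmt3a(+/-) BM tumors. Pigr thus held 14.9 to 33.5 transcripts for each of Fcgrt in control and 10.7 to 29.3 in Dnmt3a(+/-) BM tumors, ranges that overlap. By TPM, Pigr ranked between the 36th and the 383rd gene of a tumor and Fcgrt between the 1946th and the 4217th.

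The 2 experiments gave the same direction for both receptors. No other direction was possible, since every Dnmt3a(+/-) BM tumor lay under every control in CPM. The shared direction is therefore not a replication. The difference in mean log2 CPM for Fcgrt was −1.33 in BMT18, with 2 tumors a group, and −0.86 in BMT8, with 1 control and 2 Dnmt3a(+/-) BM tumors. For Pigr it was −1.30 in BMT18 and −0.88 in BMT8. Whether the graft difference itself differed between experiments was tested by an interaction term, a contrast that the choice of genes did not use as such, though it rests on the same 7 tumors; the term was 0.47 (SE 0.27) for Fcgrt and 0.53 (SE 0.69) for Pigr, with an edgeR adjusted p of 0.9999 for both. Between experiments, at equal graft, Fcgrt was 0.28 (SE 0.15) higher on the log2 scale in BMT8 (edgeR adjusted p = 0.339) and Pigr was −0.61 (SE 0.33) on the same scale (edgeR adjusted p = 0.347), so neither passed the threshold. With a single control tumor in BMT8, the spread in the interaction fit came from the other groups, and that tumor was assumed to vary like them. An interaction that misses the threshold therefore does not show that the experiments were alike. Over all genes, edgeR called 1 gene of all tested (0.00633%) between experiments and 72 without Dnmt3a(+/-) replicate 2; over all 7 tumors DESeq2 called 509. For the interaction edgeR called 0 (0%), with 730 genes at an unadjusted p below 0.05, and 105 were called by DESeq2.

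B2m, the light chain that the Fcgrt product needs, varied far more than Fcgrt itself. It measured 1001, 620 and 2397 CPM in control and 1149, 799, 411 and 142 CPM in Dnmt3a(+/-) BM tumors, and the groups overlapped. Its log2 fold change of −1.10 (SE 0.70) did not pass the threshold (edgeR adjusted p = 0.592). Its difference between grafts ran in opposite directions in the 2 experiments, 0.28 on the log2 scale in BMT18 and −3.31 in BMT8, where control replicate 3 held the highest and Dnmt3a(+/-) replicate 4 the lowest level of all 7 tumors. The interaction term was −3.38 (SE 0.86), with an edgeR adjusted p of 0.9999 and a DESeq2 adjusted p of 0.0192. In TPM, B2m outnumbered Fcgrt in every tumor, from 11.2-fold in Dnmt3a(+/-) replicate 4 to 107-fold in Dnmt3a(+/-) replicate 1.

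The log2 ratio of Fcgrt to B2m counts within a tumor accordingly followed B2m. It averaged −4.24 in control and −4.08 in Dnmt3a(+/-) BM tumors, a difference of 0.15, which split into −1.61 in BMT18 and 2.45 in BMT8. The Pigr to B2m ratio split in the same way, into −1.58 and 2.42.

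Jchain had the widest spread of the comparison genes. It measured 68.9, 2.28 and 0.826 CPM in control and 12.7, 196, 18.08 and 8.57 CPM in Dnmt3a(+/-) BM tumors. Control replicate 1 and Dnmt3a(+/-) replicate 2 were high, and the groups overlapped. The log2 fold change was 1.29 (SE 1.64; edgeR adjusted p = 0.819), and without Dnmt3a(+/-) replicate 2 it was −0.84. The number of Pigr counts for each Jchain count ranged from 39.1 to 2047 in control and from 5.97 to 116 in Dnmt3a(+/-) BM tumors, an overlap created by control replicate 1. The tumor with the most Jchain held neither the most nor the least Pigr. Over the 7 tumors, the Pearson r of log2 CPM between Pigr and Jchain was −0.213, given as a description of tumors that share the graft groups.

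Epcam placed the receptors against the epithelial content of each tumor. It measured 2004, 2680 and 3239 CPM in control and 1574, 1543, 2004 and 2437 CPM in Dnmt3a(+/-) BM tumors, which overlapped, with a log2 fold change of −0.48 (SE 0.26; edgeR adjusted p = 0.531). For every 1000 counts of Epcam, control replicates 1 to 3 held 30.3, 22.5 and 18.7 counts of Fcgrt. The Dnmt3a(+/-) BM replicates 1 to 4 held 16.7, 14.4, 17.9 and 12.8. The groups did not overlap, though control replicate 3 lay close to Dnmt3a(+/-) replicate 3, and the mean difference of −0.61 on the log2 scale (1.53-fold lower) was smaller than that of Fcgrt in CPM. Within experiments this difference was −0.75 in BMT18 and −0.30 in BMT8, which held 1 control tumor. For every 100 counts of Epcam, the control replicates held 134, 145 and 53.2 counts of Pigr and the Dnmt3a(+/-) BM replicates 93.5, 75.7, 68.0 and 26.2. These overlapped through control replicate 3, with a mean difference of −0.76, and of −0.73 in BMT18 and −0.33 in BMT8.

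A broader epithelial reference gave similar values, though it includes Epcam and rests on the same tumors, so it is not a separate check. Relative to the mean log2 CPM of the 13 epithelial markers, a reference chosen after seeing the data, the difference between grafts was −0.59 for Fcgrt and −0.75 for Pigr on the log2 scale, without overlap of the groups for Fcgrt and with overlap for Pigr. In a whole tumor, fewer cells of a type and less RNA per cell cannot be told apart. The ratio of Fcgrt to Pigr overlapped between grafts, with a mean difference of 0.15 on the log2 scale, and of −0.02 in BMT18 and 0.03 in BMT8.

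**Figure D2:**
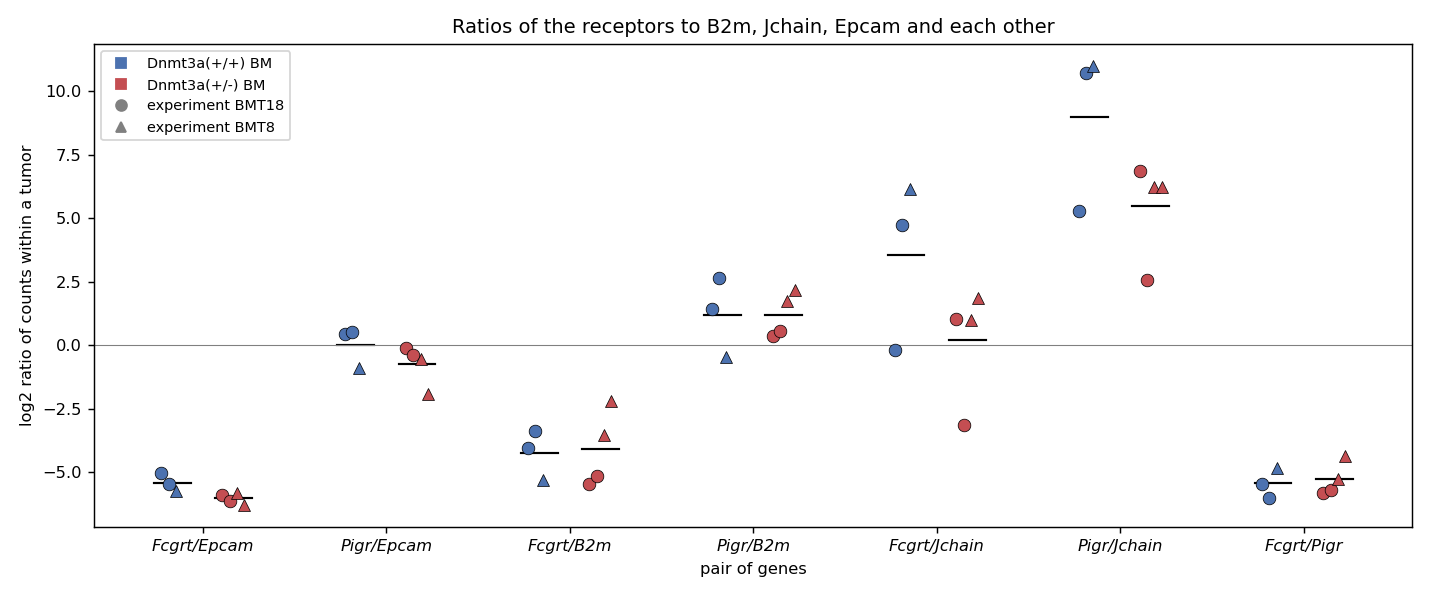
Log2 ratio of counts within each tumor (vertical axis) for 7 pairs of genes (horizontal axis), by graft (color) and experiment (circles BMT18, triangles BMT8), with group means as bars. Fcgrt to Epcam is the pair whose groups do not overlap, with a mean difference of −0.61; the ratios to B2m run in opposite directions in the 2 experiments, and those to Jchain spread most.

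Genes of class I-like proteins, most of which pair with B2m, had values on both sides of 0. Of 8 such genes tested, among them Azgp1, whose product has the fold but is not known to bind B2m, 0 were called, and 6 had a negative and 2 a positive log2 fold change. The list median was −0.49 (−0.46 without Dnmt3a(+/-) replicate 2), beside 0.0025 for all genes, and −0.05 in the BMT18 tumors alone. Of the 8, 1 was lower and 1 higher at an unadjusted p under 0.05, as were 5.20% and 5.83% of all genes. H2-T23, a nonclassical class I gene, was the lower one, with a log2 fold change of −1.05 (SE 0.31; edgeR adjusted p = 0.377), and Cd1d1, which presents lipids, the higher one, with 1.04 (SE 0.39; edgeR adjusted p = 0.420). The classical class I genes H2-K1 and H2-D1, the most abundant of the list, measured −1.04 (SE 0.57) and −0.93 (SE 0.46), and Mr1, which presents vitamin metabolites, 1.14 (SE 0.63), which was 0.60 without that replicate.

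Of the other Fc receptors and Fc binding proteins, 0 passed the test. Of 11 tested, 0 were called and 0 had an unadjusted p under 0.05, against 5.83% and 5.20% of all genes, and their median of 0.73 was −0.04 without Dnmt3a(+/-) replicate 2. Fcgr3, a low-affinity IgG receptor of leukocytes, measured 0.87 (SE 0.70), or −0.07 without that replicate, and Fcgbp, an IgG-binding protein of mucus, −0.96 (SE 0.64). Trim21, an intracellular antibody receptor, measured −0.15 (SE 0.33), and 0.07 with scaling by library size. Fcamr and Fcmr, the neighbours of Pigr, were listed at under 1 CPM in both groups on average, and Fcamr measured −0.33 (SE 0.95).

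The genes of antibody-secreting cells had mostly positive values with wide errors. Of 17 tested, 15 were positive, 1 was higher at an unadjusted p under 0.05 (5.83% of all genes) and 0 were called, with a median of 1.65 that was 0.18 without Dnmt3a(+/-) replicate 2. Igha, the IgA heavy chain, measured 41.5 ± 66.2 CPM (SD, n = 3) in control and 228 ± 399 CPM (SD, n = 4) in Dnmt3a(+/-) BM tumors, and its log2 fold change of 2.46 (SE 1.90) ranged from −0.49, without that replicate, to 6.09 as tumors were left out in turn. Ighm, the IgM heavy chain, was higher in every Dnmt3a(+/-) BM tumor than in any control, 4.26 ± 1.10 CPM (SD, n = 4) against 1.26 ± 0.575 CPM (SD, n = 3), with a log2 fold change of 1.76 (SE 0.45; edgeR adjusted p = 0.361). Iglc2, a light chain, measured 2.96 (SE 1.42) and ranged from 1.71, without that replicate, to 5.05 as tumors were left out. Sdc1, Prdm1 and Xbp1, which epithelium also uses, measured 0.06 (SE 0.37), −0.35 (SE 0.61) and −0.14 (SE 0.19), the last at 0.08 with scaling by library size. Ighg2c, Ighg3 and Tnfrsf17 were among those with too few counts to test, and Iglc1 matched no symbol.

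Signals that bring IgA-secreting cells to a mucosa included 2 of the larger negative values. Of 13 tested, 0 were called, and 2 had an unadjusted p under 0.05, both lower (5.20% of all genes). Tnfsf13, the cytokine APRIL, which epithelium can make and which favors IgA switching and plasma cell survival, measured 35.9 ± 6.36 CPM (SD, n = 3) against 14.4 ± 3.65 CPM (SD, n = 4) without overlap, a log2 fold change of −1.32 (SE 0.25; edgeR adjusted p = 0.361). Ccl28, an epithelial chemokine for IgA plasmablasts, measured 97.7 ± 68.4 CPM (SD, n = 3) against 31.4 ± 17.1 CPM (SD, n = 4), a log2 fold change of −1.64 (SE 0.67; edgeR adjusted p = 0.435). Il6, a cytokine that supports plasma cells, and Madcam1, the vascular address for gut lymphocytes, measured 3.14 (SE 1.88) and 3.08 (SE 1.49); without Dnmt3a(+/-) replicate 2 they were −0.20 and 1.14. Tgfb1, the switch factor for IgA, measured −0.06 (SE 0.36), and 0.18 with scaling by library size. The list median was 0.16, and −0.12 without that replicate.

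The vesicle machinery that moves both receptors through a cell had mostly small negative values. Of 28 genes tested, 23 were negative and 5 positive, 2 were lower at an unadjusted p under 0.05 (5.20% of all genes) and 0 were called, and the median was −0.28 (−0.16 without Dnmt3a(+/-) replicate 2). Scaling by library size moved the median of all genes to 0.21; 18 genes of the list were then negative and 10 positive with a median of −0.08, which is −0.29 relative to all genes, beside −0.28 with TMM. Vamp3, a vesicle SNARE of recycling endosomes, measured −0.49 (SE 0.19; edgeR adjusted p = 0.433), and Stx3, the apical target SNARE, −0.41 (SE 0.14; edgeR adjusted p = 0.406). Rab11a, the recycling endosome GTPase, measured −0.25 (SE 0.26), Rab5c of early endosomes −0.32 (SE 0.14), and Rab3b, which binds the Pigr tail, −0.56 (SE 0.39). Rab11fip2 and Rab11fip5, adaptors of Rab11, had the largest positive values, 0.46 (SE 0.31) and 0.44 (SE 0.21).

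Receptors and transcription factors known to act on the 2 genes included 6 with an unadjusted p under 0.05, all lower, of 27 tested, where 5.20% of all genes were lower at that p; 0 were called. Ifngr1, a chain of the interferon-gamma receptor, measured −0.54 (SE 0.22; edgeR adjusted p = 0.433), and Irf1, the factor through which interferon induces Pigr, −0.71 (SE 0.26; edgeR adjusted p = 0.420). Il17rc, a chain of the IL-17 receptor, measured −0.82 (SE 0.28; edgeR adjusted p = 0.406), and Relb, an NF-kappaB subunit, −0.50 (SE 0.13; edgeR adjusted p = 0.361). Hnf4a, a factor of the differentiated gut epithelium, measured −0.86 (SE 0.25; edgeR adjusted p = 0.377), and Cebpb, whose element was matched in the Fcgrt window, −0.97 (SE 0.35; edgeR adjusted p = 0.407). Of the factors with a match in the Pigr window other than Irf1, Usf1 measured −0.10 (SE 0.22), Usf2 −0.06 (SE 0.13) and Stat3 0.12 (SE 0.20); Usf1 and Usf2 are named for the match and not by the rule. Sp1, without a match, measured 0.05 (SE 0.21). In all, 24 of the 27 were negative with a median of −0.22 (−0.28 without Dnmt3a(+/-) replicate 2 and −0.08 in the BMT18 tumors alone); scaled by library size, 13 were negative and the median was 0.02, which is −0.19 relative to the median of all genes. The 4 cytokines tested, Ifng, Tnf, Il1b and Il17a, measured −0.47 (SE 1.15), −0.03 (SE 0.43), 0.16 (SE 0.73) and 0.55 (SE 1.16), and 0 had an unadjusted p under 0.05. Without Dnmt3a(+/-) replicate 2, the first 3 were −1.36, −0.35 and −0.89, Il17a had too few counts to test, and the list median of 0.06 became −0.89; with scaling by library size Tnf was 0.24.

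**Figure D3:**
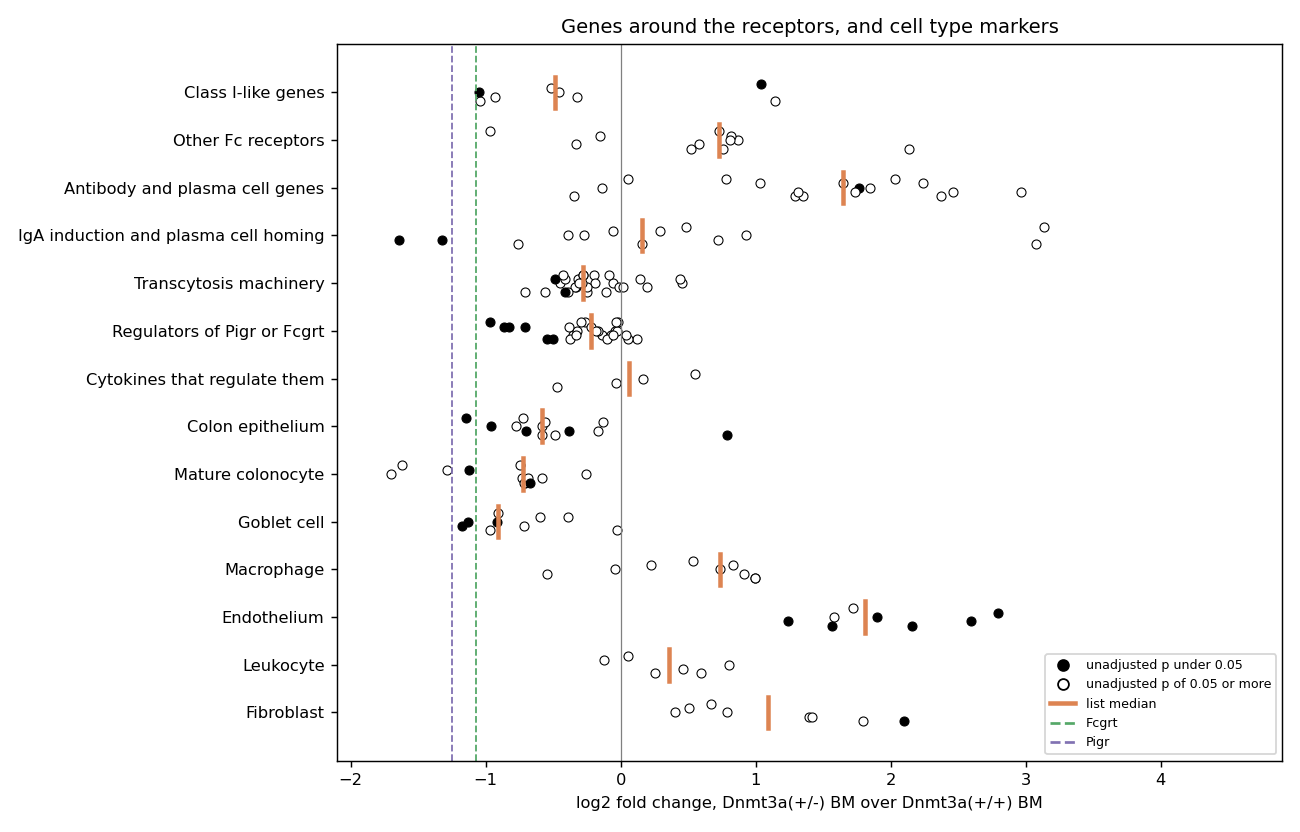
Log2 fold change, Dnmt3a(+/-) BM over Dnmt3a(+/+) BM, of each tested gene (points, filled at an unadjusted p under 0.05) in 7 gene groups and 7 cell type lists, with list medians as orange bars and the 2 receptors as dashed lines. Epithelial, colonocyte and goblet lists lie left of 0 with medians of −0.58, −0.72 and −0.91, and endothelial and fibroblast lists right of it with medians of 1.81 and 1.09.

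Markers of the epithelium, the cells that make Pigr, also had mostly negative values. Of 13 epithelial markers, 12 were negative and 4 of these had an unadjusted p under 0.05 (5.20% of all genes), with a median of −0.58 (−0.45 without Dnmt3a(+/-) replicate 2). Cdx1, a homeobox factor of the gut, measured −1.15 (SE 0.28; edgeR adjusted p = 0.361), whereas its relative Cdx2 measured 0.79 (SE 0.29; edgeR adjusted p = 0.420). All 12 markers of mature colonocytes were negative, 2 of them at an unadjusted p under 0.05, with a median of −0.72 (−0.69 without that replicate); Ceacam20, of the brush border, measured −1.13 (SE 0.20; edgeR adjusted p = 0.361). All 9 goblet cell markers were negative on the TMM scale, 3 at an unadjusted p under 0.05, with a median of −0.91 (−0.87 without that replicate); Spink4 measured −1.13 (SE 0.16; edgeR adjusted p = 0.361), and Muc2, the chief mucin, −0.03 (SE 0.55), which was 0.22 with scaling by library size. The mean log2 CPM of the epithelial markers ranged from 9.52 to 10.2 in control and from 8.96 to 9.71 in Dnmt3a(+/-) BM tumors, and 0 genes of these lists were called.

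Endothelium and macrophages, where Fcgrt is also known to act, and other cells of the stroma had mostly positive marker values. All 8 endothelial markers were positive, 6 at an unadjusted p under 0.05 (5.83% of all genes were higher at that p), with a median of 1.81 (1.30 without Dnmt3a(+/-) replicate 2); Pecam1 measured 1.56 (SE 0.46; edgeR adjusted p = 0.377) and the mean log2 CPM of the list ranged from 0.632 to 1.80 in control and from 1.60 to 4.15 in Dnmt3a(+/-) BM tumors. Of 9 macrophage markers 7 were positive, with a median of 0.74 that was 0.08 without that replicate. All 8 fibroblast markers were positive, 1 at an unadjusted p under 0.05, with a median of 1.09 that was 0.22 without it, and 5 of 6 leukocyte markers, with a median of 0.36 that was −0.09 without it. The defining markers Cdh5 and Adgre1 were detected in every group, at 3.07 and 2.17 CPM in control on average, and the part of any of these cells in the Fcgrt or Pigr difference was not tested.

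The genes whose log2 CPM tracked each receptor most closely over the 7 tumors were named by Pearson r, as a description; the points share the graft groups. For Fcgrt they were Marveld3, a tight junction protein (r = 0.989), Unc119 (0.987), Mgam2-ps (0.983), Cideb (0.983) and Pdzd3, a scaffold of the brush border (0.98). For Pigr they were Acss2, which makes acetyl-CoA from acetate (r = 0.997), Tmco3 (0.992), Cdc42se2 (0.987), Ppif (0.984) and Nucb1 (0.984). The lists shared no gene, and Pigr ranked 1491 of 15809 in likeness to Fcgrt with r = 0.717. Fcgrt had r = 0.756 with Epcam, and Pigr r = 0.225.

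**Figure D4:**
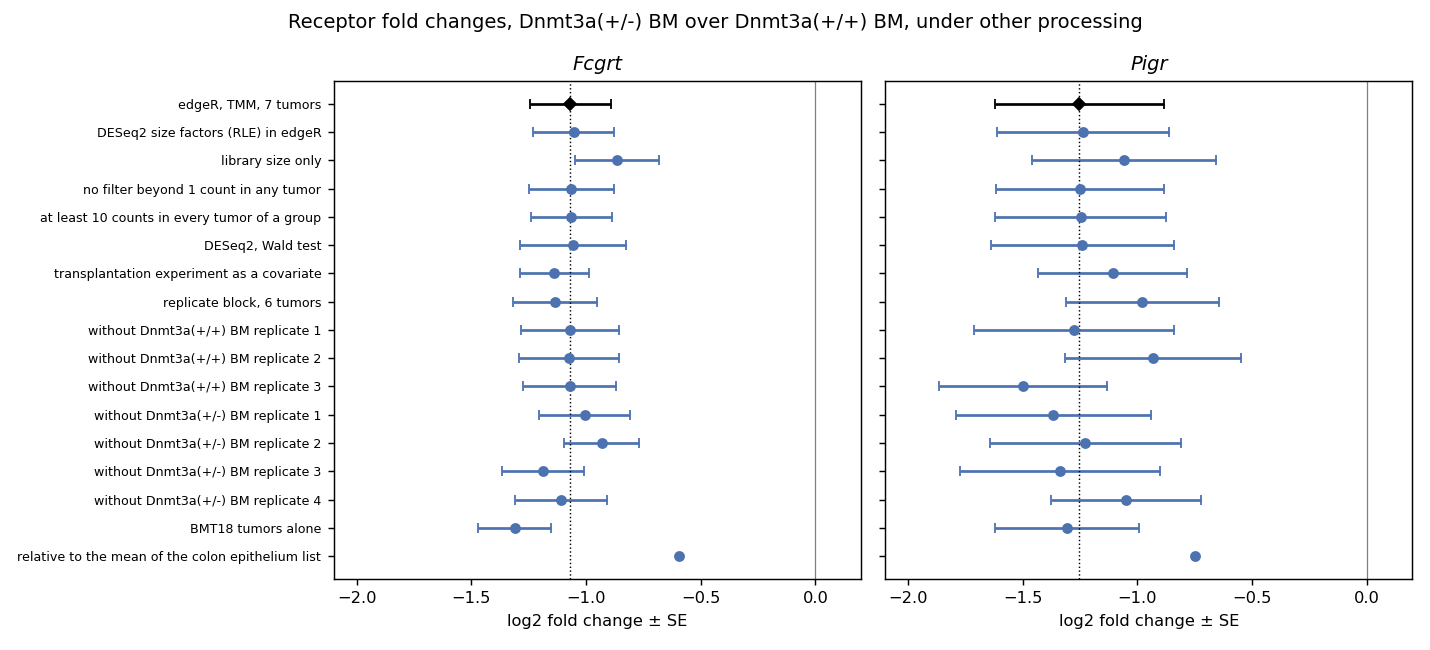
Fitted log2 fold change (horizontal axis, bars are SE where a fit gives one) of Fcgrt and Pigr under each processing alternative (vertical axis), with the reported value as a diamond and dotted line. Every value lies left of 0, from −1.31 to −0.59 for Fcgrt and from −1.50 to −0.75 for Pigr, and those nearest 0 are relative to the epithelial markers. The shared sign was favored by choosing both genes on this contrast.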

How the data were processed

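RNA from whole tumors was enriched for poly(A) and made into stranded libraries. After trimming, alignment by STAR 2.7.3a used mouse build 38 (mm10), and the authors deposited estimated counts per gene from RSEM 1.2.31 as whole numbers (100% of values). The strand setting and annotation release are not given in the sources used here. Genes whose identifier matched no symbol held at most 0.122% of a tumor's counts and stayed in the fits.

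Counts were tested in R 4.3.3 with edgeR 4.0.16 (filterByExpr, TMM, quasi-likelihood test, Benjamini-Hochberg adjustment), and with DESeq2 1.42.0 as an alternative. Calls required an adjusted p below 0.05 with a log2 fold change beyond 1 in size. Ratios used a pseudocount of 0.5 counts, log2 CPM a prior count of 2, and TPM the union exon lengths of GENCODE M21. Intervals from counts cover counting error only.

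The members and all 14 lists were chosen with earlier results of these data known. Named genes were the members, the 3 comparison genes, the 3 most abundant genes of a list, its 2 largest changes in each direction and those at an unadjusted p under 0.05, the 5 genes most like each member, and Dnmt3a; some that met the rule are given only in counts. The study describes the tumors as derived from 3 and 4 mice, and the sample labels give each tumor a different number. The labels of Dnmt3a(+/-) replicates 2, 3 and 4 hold an added 2 after that number, and no control label does. What it marks is not stated, so an effect of it could hardly be told apart from the graft.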

Additional observations from a re-analysis of the deposited data

Results flagged for a closer look

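In the Dnmt3a(+/-) BM group, replicate 2 lay far from the other 3 tumors in 3 of the 27 sets of 4 values examined, where chance alone gives about 1 in 20, or 1.35. Its Jchain level was 196 CPM, beside 8.57 to 18.08 CPM in the others. Its log2 ratio of Pigr to Jchain counts was 2.58, beside 6.22 to 6.86 in the others. Both of these sets rest on the same Jchain value, so the 3 are not independent. Their number can therefore not be weighed against 1.35. The mean log2 CPM of its fibroblast markers was 5.95, beside 3.71 to 4.06. Neither Fcgrt nor Pigr was set apart in this tumor, at 22.2 and 1167 CPM.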

How the results depend on the processing

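Both receptors kept a negative log2 fold change under all 16 alternatives run for each. Both were chosen for being lower in these same tumors, so the sign could hardly change and is no separate support. Fcgrt ranged from −1.19 to −0.93 when each tumor was left out in turn; it was −1.31 in the BMT18 tumors alone, and −0.59 relative to the epithelial markers, the alternative added after seeing the data, which subtracts the lower level of those markers. Pigr ranged from −1.50 to −0.93 over the left-out tumors and moved by less than its spread under every alternative. edgeR called 0 genes in every setting, while DESeq2 called 300, of which 243 were higher; the cause was not tested. B2m reversed to 0.27 in the BMT18 tumors alone, and ranged from −1.52 to −0.37 over left-out tumors; Jchain ranged from −0.84, without Dnmt3a(+/-) replicate 2, to 5.20, without control replicate 1. Same-numbered tumors did not deviate together in every pair (correlations of 0.568, 0.071 and −0.038, with 2 of 6 tumors closest to their own number), so the numbers were not taken as pairs; with a replicate block on 6 tumors Fcgrt was −1.14 and Pigr −0.98, and edgeR again called 0 genes. Depth did not limit the receptors, whose smallest count was 1051, but Jchain rested on 27 counts in control replicate 3. The number of animals, 3 and 4, limits every comparison.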
